A study of Mus musculus with 6 samples.

Results

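The 9 genes described here are transcripts of microglia, the resident macrophages of the brain: C1qa, C1qb, C1qc, Csf1r, Cx3cr1, Tyrobp, Ctss, Ctsb and Ctsd. They were taken by name from the 24411 genes in the deposited tables, and each of the 9 was present. RNA was sequenced from corpus callosum, the tract that joins the cortical hemispheres, dissected by hand from 60 µm frozen sections of mouse brain on postnatal day 4. The groups, in a B6 background, were Mettl14 cKO (3 libraries) and WT (3 libraries), and no treatment is named. Mettl14 is a subunit of the complex that writes N6-methyladenosine on RNA, and the series asks how this mark bears on mRNA in axons. The labels call the tissue callosal axon, name neither the Cre line nor the cells in which the gene was deleted, and leave it unsaid whether the libraries come from different animals. The p-values therefore measure only the spread between these libraries.

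Microglia enter the brain before birth and depend for their survival on the receptor CSF1R and its ligands CSF1 and IL-34. In the early postnatal callosum many are rounded, phagocytic cells. They follow the neuronal chemokine CX3CL1 through its receptor CX3CR1, signal through the adaptor TYROBP (DAP12) below receptors such as TREM2, and secrete C1q, which starts the classical complement cascade and marks material for removal. Engulfed material is broken down in lysosomes, where the cathepsins are proteases. Ctss is largely a macrophage gene, whereas Ctsb and Ctsd are made by most cells of the brain.

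No member was called between the genotypes. Of the 8 members tested, 0 passed an adjusted p of 0.05 in edgeR's quasi-likelihood test, 0 had an unadjusted p below 0.05, and 0 passed in DESeq2 or limma-voom. Among all 5918 genes tested, 0.912% were called by edgeR (0.49% higher and 0.422% lower in cKO), 12.6% had an unadjusted p below 0.05, 7.25% were called by DESeq2 and 0.71% by limma-voom. Cx3cr1 lay below the filter on low counts and was not tested. What the members did show was a large difference among libraries of 1 genotype, which was uneven from gene to gene. Csf1r was nearly level. Cx3cr1 ran from 0 to 94 counts in cKO and from 1 to 226 in WT. Summed over its 3 chains, C1q ran from 6 to 167 counts in cKO and from 10 to 383 in WT. In whole tissue, fewer microglia and less RNA per cell cannot be told apart.

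Total expected counts were 670462 to 1208382 in the cKO libraries and 843647 to 1268430 in the WT libraries, where a count is an estimated number of fragments. Both replicate 2 libraries had the largest totals and the shortest fragments, 292.7 bases on average in cKO and 304.3 in WT, against 332.4 to 350.5 in the other 4. One count equals 0.803 to 1.41 CPM (counts scaled to library size by the TMM method). A gene at 0 counts could still stand at up to 3 counts, which is 2.41 to 4.24 CPM depending on the library. Mettl14 itself had 2, 7 and 2 counts in cKO and 11, 8 and 5 in WT, with a log2 fold change of −0.93 (SE 0.66) in a fit with no filter, too few counts to check the label well. Xist had 2323 to 4618 counts in the cKO libraries and 0 in the WT libraries, and the Y-linked Eif2s3y had 0 and 51 to 80. Genotype and sex thus cannot be told apart here. Summed TPM of 12 myelinating oligodendrocyte genes was 127 to 239 in cKO and 2618 to 3502 in WT, that of 12 astrocyte genes was 815 to 1546 and 3483 to 3914, and that of 12 neuron genes was 9309 to 10828 and 5543 to 6190. The part of these other cell types in the microglia values was not tested.

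Promoter windows of 5 members were found in the RefSeq promoter table of build GRCm38.p6 (C1qb, C1qc, Cx3cr1, Ctss and Ctsd), each running 250 bases before to 50 bases after a transcript start. Those of 4 members are given below because they stand for the main kinds of behaviour in the counts: C1qb and C1qc, neighbours that were low in the same 2 libraries, Ctss, the macrophage cathepsin, and Ctsd, the most abundant member. Capitals mark matches to GAGGAAGT (read as ACTTCCTC on the other strand), a form of the site bound by the macrophage factor PU.1, to GAAA followed by any 2 bases and GAAA, a form of the interferon-response element, or to CACGTG, the E-box core of the lysosomal gene motif, each searched on both strands.
C1qb: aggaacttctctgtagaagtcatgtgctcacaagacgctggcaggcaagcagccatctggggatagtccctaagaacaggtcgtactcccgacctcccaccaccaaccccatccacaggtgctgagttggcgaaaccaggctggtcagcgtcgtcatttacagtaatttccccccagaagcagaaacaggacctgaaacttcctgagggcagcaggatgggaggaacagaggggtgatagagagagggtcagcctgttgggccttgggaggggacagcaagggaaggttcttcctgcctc
C1qc: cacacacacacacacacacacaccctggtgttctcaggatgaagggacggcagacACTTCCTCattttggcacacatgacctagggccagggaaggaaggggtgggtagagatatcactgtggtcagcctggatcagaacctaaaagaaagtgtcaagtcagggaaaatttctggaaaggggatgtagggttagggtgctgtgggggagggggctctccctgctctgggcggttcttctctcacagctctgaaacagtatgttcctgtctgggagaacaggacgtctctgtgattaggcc
Ctss: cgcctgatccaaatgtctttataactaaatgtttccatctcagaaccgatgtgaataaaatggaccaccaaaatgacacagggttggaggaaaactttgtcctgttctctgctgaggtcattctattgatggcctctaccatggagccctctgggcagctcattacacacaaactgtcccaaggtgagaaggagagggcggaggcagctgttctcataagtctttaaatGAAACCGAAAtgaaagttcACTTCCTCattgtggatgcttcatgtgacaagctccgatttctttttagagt
Ctsd: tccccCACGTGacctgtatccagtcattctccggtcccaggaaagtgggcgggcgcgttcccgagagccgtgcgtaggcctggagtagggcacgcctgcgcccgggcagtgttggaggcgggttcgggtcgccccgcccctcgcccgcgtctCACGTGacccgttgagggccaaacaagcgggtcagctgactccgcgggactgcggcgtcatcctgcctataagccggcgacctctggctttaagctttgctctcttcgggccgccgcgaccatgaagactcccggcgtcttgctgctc
These windows lie at chr4:136886151-136886450 (minus strand), chr4:136892865-136893164 (minus), chr3:95526536-95526835 (plus) and chr7:142387778-142388077 (minus). GAGGAAGT was found in 2 of the 5 member windows, C1qc and Ctss, and in 3.2% of all 32851 windows of that length. In Ctss it starts 2 bases before the transcript start, and the interferon-type match, a motif held by 3.44% of windows, starts 21 bases before it without overlapping it. CACGTG occurred at 2 places in the Ctsd window and in 7.15% of all windows. C1qb and Cx3cr1 held none of the 3 motifs. A match describes letters only, and Csf1r, C1qa, Tyrobp and Ctsb are named without a sequence.

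Per length, Ctsd was the highest of the 9 genes. It encodes an aspartic protease of the lysosome, and its TPM, a level scaled by transcript length and library total, ran from 473 to 1278 with a median of 894 over the 6 libraries. It stood above Ctsb, a cysteine protease of the lysosome at 52.4 to 271 TPM, in each of the 6, with ranges that did not meet. By mean TPM the order went on with C1qc (133), C1qb (107), Tyrobp (91.8), C1qa (63.5), Ctss (49.1), Cx3cr1 (18.5) and Csf1r (17.5). No other pair of neighbours in that order had separate ranges. C1qb exceeded Tyrobp in 3 of 6 libraries, C1qa exceeded Ctss in 3 of 6, and Cx3cr1 exceeded Csf1r in 2 of 6, both of them replicate 2. Ctsb and Ctsd together made up 56.8% to 89.4% of the summed TPM of the 9 genes in cKO and 60.2% to 86.6% in WT. The sum itself was 795, 1170 and 1988 TPM in cKO replicates 1 to 3 and 1197, 2115 and 1743 TPM in the WT replicates. The ranges overlapped.

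**Figure D1:**
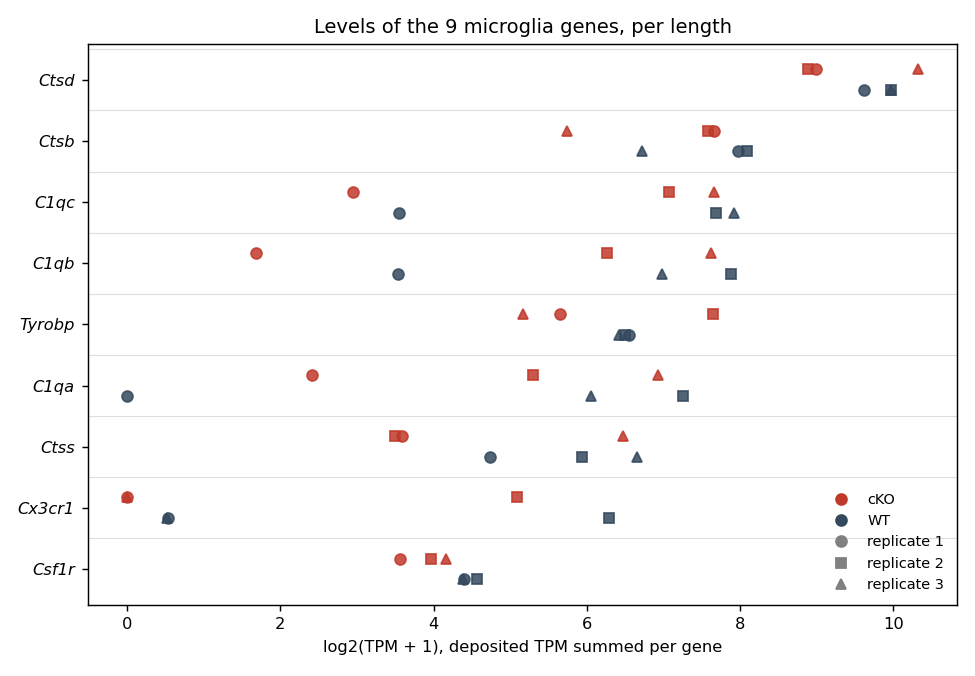
Level of each member in each library as log2(TPM + 1), ordered by mean TPM, with cKO points above WT points and the replicate number given by the marker. Ctsd is to the right of Ctsb in every library, while the C1q chains and Cx3cr1 each have replicate 1 far to the left of replicate 2.

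Csf1r (chromosome 18, 61105572 to 61131139, GRCm38; 22 exons) was the steadiest member and the only one whose groups did not overlap. It encodes the receptor on which microglial survival depends. Its counts were 24, 43 and 27 in cKO replicates 1 to 3 and 46, 69 and 48 in the WT replicates. On the CPM scale this is 32.3, 43.0 and 38.2 in cKO, against 51.7, 55.4 and 55.9 in WT. Every cKO value was below every WT value. The means were 37.8 ± 5.39 and 54.3 ± 2.31 CPM (SD, n = 3 each), a log2 fold change of −0.52 (SE 0.39) that did not pass (edgeR adjusted p = 0.669). Of all genes tested, 9.45% had groups apart in this direction and 19.8% in either, so 1 of 8 tested members is near the background. Pooled counts were 94 in cKO and 163 in WT, a ratio of 0.705 with an exact 95% interval of 0.541 to 0.914, which covers counting error only. The log2 fold change kept its sign in each of 16 alternative fits, between −0.81 and −0.46.

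The ligands of CSF1R were near the limit of detection. Csf1 had 0, 4 and 13 counts in cKO and 5, 5 and 3 in WT, with overlapping groups. Il34 had 0 counts in each cKO library and 1, 0 and 0 in WT. Neither was tested.

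Tyrobp (chromosome 7, 30413782 to 30417582; 5 exons), the adaptor with an activation motif that couples TREM2 and other receptors to the kinase SYK, was even in WT and uneven in cKO. It had 8, 49 and 4 counts in cKO and 16, 22 and 15 in WT. In CPM these are 10.8, 49.0 and 5.66 in cKO and 18.0, 17.7 and 17.5 in WT. The WT values thus lay between the cKO values, with replicate 2 alone above them. The log2 fold change was 0.33 (SE 0.75, edgeR adjusted p = 0.931), and without cKO replicate 2 it was −1.09 (adjusted p = 0.435). Trem2, its best known partner in microglia, had 7, 8 and 2 counts in cKO and 7, 10 and 7 in WT, below the filter. Syk had 1 to 2 counts in each cKO library and 2 to 3 in each WT library.

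Cx3cr1 (chromosome 9, 120048683 to 120068296; 2 exons), the fractalkine receptor, was seen in the replicate 2 libraries of both genotypes and nearly nowhere else. It had 0, 94 and 0 counts in cKO replicates 1 to 3 and 1, 226 and 1 in the WT replicates. In CPM the replicate 2 values were 94.1 in cKO and 181 in WT, and the other 4 libraries were at 0 to 1.16. Both groups held the same pattern, so the groups overlapped and the spread inside them was far larger than the difference between them. Of the 5758 genes with at least 10 counts in both replicate 2 libraries, 150 (2.6%) had at most 1 count in each of the other 4, and 85 of the 150 have 1 to 3 exons. These limits were set after the counts of Cx3cr1 were seen. Its ligand Cx3cl1, with 3 exons, had 1 count in each cKO library and 0, 159 and 0 in WT.

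**Figure D2:**
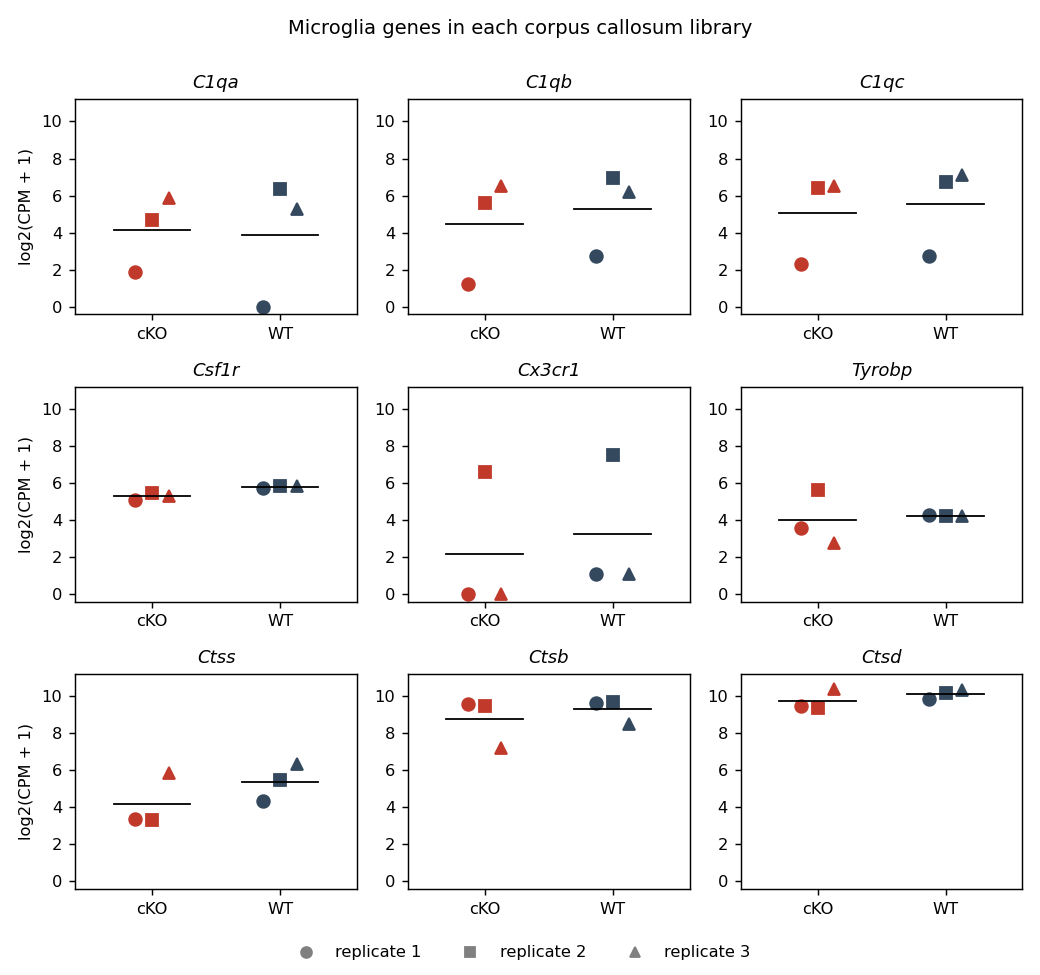
Each panel gives 1 member as log2(CPM + 1) in the 3 cKO and the 3 WT libraries, with the replicate number as the marker and the mean of the 3 values as a bar. Csf1r is the 1 panel with cKO wholly below WT, C1q is lowest in replicate 1 of both genotypes, and Cx3cr1 is near 0 except in replicate 2.

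The 3 chains of C1q assemble into 1 molecule, and their genes lie side by side on chromosome 4. C1qb spans 136880126 to 136886200, C1qc 136889801 to 136892936 and C1qa 136895916 to 136898844, with 3600 and 2979 bases between neighbours, and each has 3 exons. C1qa had 2, 25 and 40 counts in cKO replicates 1 to 3 and 0, 101 and 33 in the WT replicates. C1qb had 1, 48 and 63 in cKO and 5, 151 and 62 in WT. C1qc had 3, 84 and 64 in cKO and 5, 131 and 118 in WT. All 3 chains were near 0 in replicate 1 of both genotypes and well counted in the other 4 libraries.

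Summed over the chains there were 6, 157 and 167 counts in cKO and 10, 383 and 213 in WT. The sum was 13.2, 248 and 518 TPM in cKO and 21.3, 591 and 433 TPM in WT. Summed C1q TPM was 1.23 times that of Csf1r in cKO replicate 1 and 1.06 times in WT replicate 1, against 17.01 to 30.5 times in the other 4 libraries. The low C1q values of the replicate 1 libraries were thus not matched by Csf1r. In the 4 well counted libraries C1qc held 34.7% to 55.9% of the C1q TPM, C1qb 29.1% to 39.5% and C1qa 15.1% to 25.8%. C1qa was the lowest chain in each of those 4. C1qc was the highest in cKO replicate 2, cKO replicate 3 and WT replicate 3, and C1qb in WT replicate 2.

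Between the genotypes the chains did not differ beyond the spread between libraries. C1qa averaged 28.1 ± 27.1 CPM in cKO and 39.8 ± 40.6 CPM in WT (SD, n = 3 each), C1qb 46.2 ± 43.9 and 66.4 ± 58.1, and C1qc 59.5 ± 48.2 and 82.7 ± 68.7. The log2 fold changes were −0.52 (SE 1.44), −0.53 (SE 1.35) and −0.47 (SE 1.29), with edgeR adjusted p of 0.948, 0.941 and 0.946. Such standard errors leave room for a several-fold change in either direction.

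Among the other complement genes, several components of the cascade were at or near 0 counts. The proteases C1ra and C1s1, which bind C1q, had 0 counts in each of the 6 libraries. C3, the central component, had 0 counts in cKO and 0, 1 and 0 in WT. C4b had 4, 10 and 30.9 counts in cKO and 37.95, 57.9 and 46 in WT, with −1.28 on the log2 scale (SE 0.76, edgeR adjusted p = 0.571). Its near-identical copy C4a shares reads with it, so the split between them is an estimate. Clu, a secreted chaperone made by astrocytes that restrains the terminal pathway, had 29, 20 and 25 counts in cKO and 133, 450 and 92 in WT. Its groups did not overlap, but the log2 fold change of −2.71 (SE 0.66) did not pass (edgeR adjusted p = 0.181). Calr, an endoplasmic reticulum chaperone that can also bind C1q, stood at −0.55 (SE 0.19, edgeR adjusted p = 0.294). Of 25 complement genes on the list 5 were tested and 0 were called by edgeR, 2 had an unadjusted p below 0.05, and DESeq2 called 2 lower. The median log2 fold change of the 5 was −1.28, where that of all tested genes was 0.07. Of the 5, 4 were negative, while Csmd2 stood at 0.57 (SE 0.45, edgeR adjusted p = 0.687). Cfp, below the filter, also went the other way, with 7, 9 and 11 counts in cKO and 3, 1 and 0 in WT. The groups of Cfp did not overlap.

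Among the cathepsins, Ctss (chromosome 3, 95526786 to 95556405; 8 exons), a cysteine protease that works outside the acid lysosome as well, had 7, 9 and 40 counts in cKO and 17, 54 and 69 in WT. In CPM these are 9.41, 9.01 and 56.6 in cKO, against 19.1, 43.4 and 80.3 in WT. The cKO replicates 1 and 2 were below each WT library, but cKO replicate 3 exceeded WT replicates 1 and 2, so the groups overlapped. On the log2 scale cKO over WT stood at −0.94 (SE 0.89, edgeR adjusted p = 0.756). Without cKO replicate 3 it was −2.34 (adjusted p = 0.335), and without WT replicate 3 it was −0.34 (adjusted p = 0.9997). Its second transcript took 13.2% of the gene in cKO replicate 3, 9.81% in WT replicate 2 and 8.13% in WT replicate 3, and 0% in the other 3 libraries.

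Ctsb (chromosome 14, 63122462 to 63145923; 10 exons) had 556, 700 and 104 counts in cKO and 714, 1024 and 312 in WT. Replicate 3 was the lowest library of each genotype, and the groups overlapped. The log2 fold change was −0.32 (SE 0.64, edgeR adjusted p = 0.915). Ctsd (chromosome 7, 142375910 to 142387827; 9 exons) had 516, 647 and 927 counts in cKO and 825, 1408 and 1101 in WT. On the CPM scale it was 694, 648 and 1311 in cKO and 927, 1131 and 1282 in WT, so replicate 3 was the highest library of each genotype. The log2 fold change was −0.33 (SE 0.34, edgeR adjusted p = 0.778). The ratio of Ctsd to Ctsb TPM was therefore uneven, at 2.54, 2.48 and 24.4 in cKO and 3.14, 3.70 and 9.62 in WT.

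Cathepsins and their inhibitors, the cystatins, were looked at together. Of the 15 genes on that list, 3 of which are members, 8 were tested, 0 were called by edgeR and 2 had an unadjusted p below 0.05. All 8 had negative log2 fold changes, where 46.1% of all tested genes were negative. Cst3, cystatin C, an inhibitor of cysteine cathepsins that astrocytes also make in quantity, had 895, 1287 and 454 counts in cKO and 2942, 3070 and 2765 in WT. Its groups did not overlap and the log2 fold change was −1.52 (SE 0.30), but the edgeR adjusted p was 0.115, while DESeq2 (adjusted p = 6.72e-06) and limma on log2(TPM + 1) (adjusted p = 0.0112) called it. Ctsl, another cysteine cathepsin, had 33, 44 and 48 counts in cKO and 93, 279 and 89 in WT, with −1.47 (SE 0.54, edgeR adjusted p = 0.338). Of 41 lysosome genes 28 were tested, 0 were called by edgeR and 2 had an unadjusted p below 0.05, DESeq2 called 1 lower, and their median was −0.18. Only 17 of the 28 had negative log2 fold changes, and Atp6v0c stood at 3.52 (SE 1.6, edgeR adjusted p = 0.434). Lamp1, a main protein of the lysosomal membrane, stood at −0.70 (SE 0.23, edgeR adjusted p = 0.276, DESeq2 adjusted p = 0.0121), and Psap, the precursor of the saposins, at −0.34 (SE 0.19, edgeR adjusted p = 0.54).

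The label was checked against 32 other genes of microglial identity. Some were counted in all 6 libraries, such as Lgmn, the protease legumain, with 74 to 126 counts in cKO and 145 to 168 in WT. Markers that set microglia apart from other macrophages were mostly missing. Tmem119, P2ry13 and Selplg had 0 counts in all 6 libraries, as had the transcription factor Runx1. P2ry12, the purinergic receptor of resting microglia, had 53 counts in WT replicate 3 and 0 in the other 5 libraries. Sall1, a transcription factor of microglia, had 178 counts in WT replicate 2 and 0 elsewhere. Spi1, which encodes PU.1, had 0, 2 and 2 counts in cKO and 0, 22 and 0 in WT. Over all genes, 99 had at least 50 counts in 1 library and at most 1 in each of the other 5, and 65 of these have 1 to 3 exons. These limits were also set after the counts were seen.

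The count of identity genes with at least 1 count was 19, 22 and 23 of 32 in cKO replicates 1 to 3 and 23, 26 and 22 in the WT replicates. Only 5 of the 32 passed the filter, all 5 with negative log2 fold changes, and 0 were called (0 at an unadjusted p below 0.05 with edgeR, 0 with DESeq2). Among all genes tested, 46.1% had negative log2 fold changes. Fcer1g, an adaptor like Tyrobp, had 6, 17 and 11 counts in cKO and 38, 53 and 7 in WT, with −1.19 (SE 0.67, edgeR adjusted p = 0.541). Fcgr3, the IgG receptor it serves, had 1, 23 and 0 counts in cKO and 46, 38 and 2 in WT, with −1.69 (SE 1.34, edgeR adjusted p = 0.694). Both were lowest in replicate 3 within WT, unlike C1q.

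**Figure D3:**
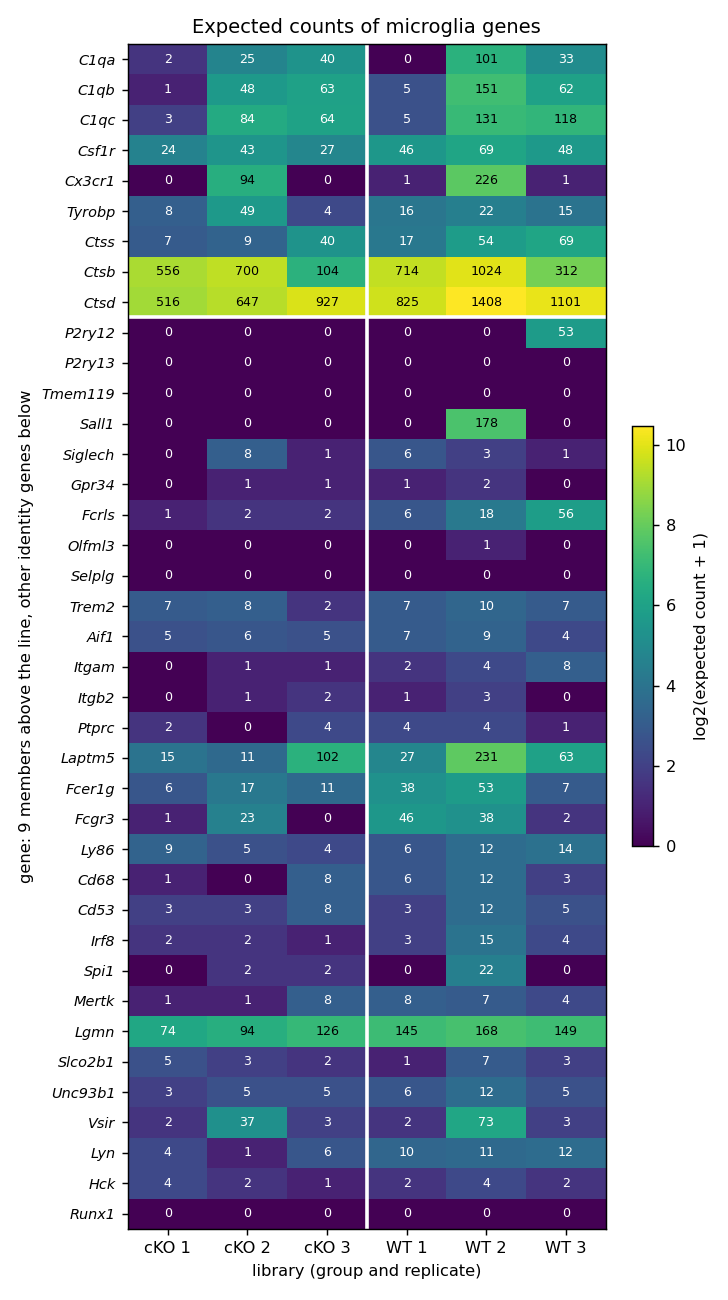
Expected counts of the 9 members (above the white line) and of 30 other microglial identity genes in the 3 cKO and 3 WT libraries, with colour on a log2(count + 1) scale. Csf1r, Ctsb, Ctsd and Lgmn are counted in every library, while P2ry12 and Sall1 fill 1 library each and Tmem119 none.

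Markers of macrophages of the brain borders and blood were mostly at or near 0. Of 15 such genes 8 had 0 counts in all 6 libraries, among them Lyve1, Cd163, Ccr2, S100a8 and S100a9. Mrc1 had at most 1 count in each cKO library and at most 3 in each WT library. Stab1, a scavenger receptor also made by microglia, was the 1 gene tested, at −0.92 (SE 0.56, edgeR adjusted p = 0.582).

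On the list of genes of phagocytic and white-matter microglia, 12 of 21 were tested. Of the 12, 9 had negative log2 fold changes, with a median of −0.38. EdgeR called 1 of them, where it called 0.912% of all genes tested. The gene called was Apoe, which astrocytes also make in large amounts (log2 fold change −1.57, SE 0.16, edgeR adjusted p = 0.0147). That call was lost in edgeR without cKO replicate 1 (adjusted p = 0.15), cKO replicate 2 (0.0738), WT replicate 1 (0.119) or WT replicate 3 (0.116), and also with upper-quartile scaling (0.0992), with the replicate block (0.122) and without both replicate 2 libraries (0.142), with the log2 fold change between −1.65 and −1.52 when any 1 library was left out. Anxa5, a phosphatidylserine-binding protein, stood at −1.18 (SE 0.55, edgeR adjusted p = 0.45). Spp1, osteopontin, was named after its values were seen because 1 library decided its direction. It had 9, 12 and 1390 counts in cKO and 276, 843 and 561 in WT. The cKO values thus lay on both sides of WT.

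The list of ligands and partners of these receptors also holds the member Csf1r itself. Of its 18 genes 6, Csf1r among them, were tested and 0 were called (0 at an unadjusted p below 0.05, 0 with DESeq2). The directions were mixed, with 4 of the 6 log2 fold changes negative and a median of −0.28. Sirpa, the receptor on phagocytes and neurons for the signal CD47, had 15, 189 and 10 counts in cKO and 110, 377 and 208 in WT, with −1.57 (SE 1.04, edgeR adjusted p = 0.616). Cd47 had 23, 30 and 13 counts in cKO and 38, 30 and 34 in WT. Grb2 went the other way, with 38, 92 and 67 counts in cKO and 0, 65 and 45 in WT. Its log2 fold change was 1.18 (SE 1.24, edgeR adjusted p = 0.792).

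**Figure D4:**
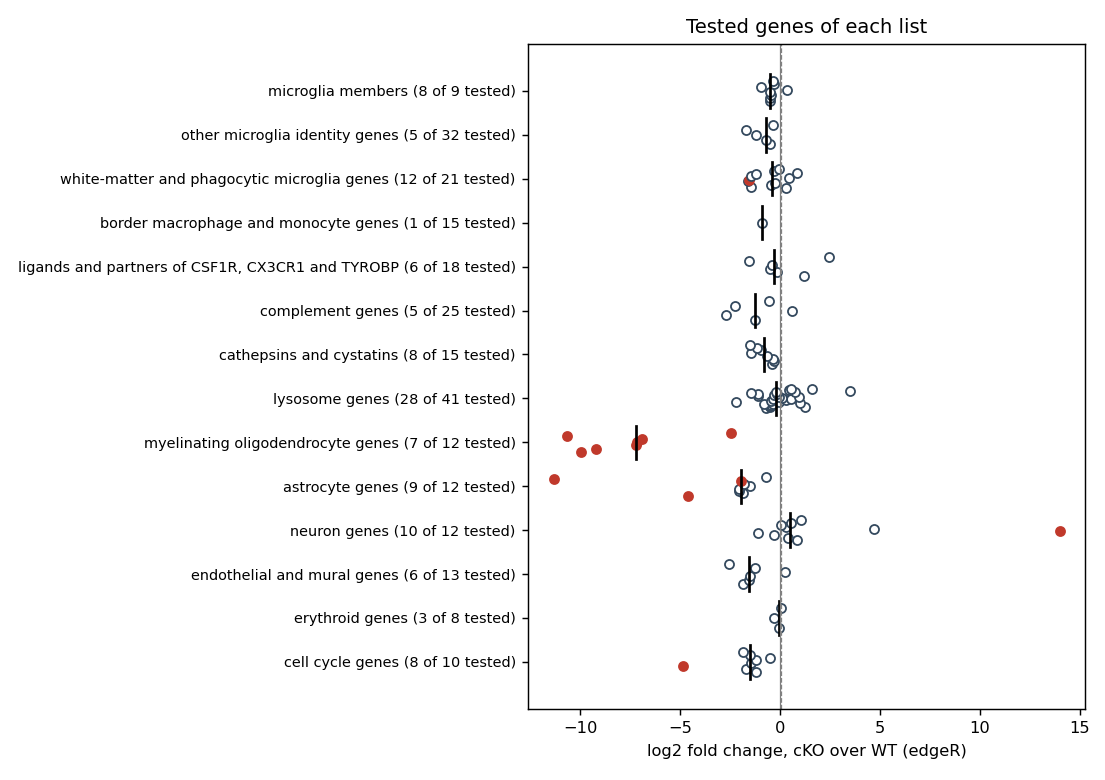
Log2 fold change (cKO over WT, edgeR) of the tested genes of each list, with called genes filled, a black bar at each list's median and a dashed line at the median of all tested genes (0.07). Fitted values of genes at 0 in 1 group depend on the prior count and are no bounds, and 0 of the 8 tested members are called, with 7 of them left of 0.

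Of the 8 tested members 7 had negative log2 fold changes, with a median of −0.49, where 46.1% of all tested genes were negative. The members share libraries, so these are not 8 separate observations. Leaving out cKO replicate 1 left 5 of 9 tested members negative, and leaving out WT replicate 2 left 5 of 8.

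The spread inside the groups differed among the members. Pooled over both genotypes, the SD of log2(CPM + 1) was 0.15 for Csf1r and 0.43 for Ctsd, against 1.06 for Tyrobp, 1.05 for Ctsb, 1.25 for Ctss, 2.41 to 2.81 for the C1q chains and 3.75 for Cx3cr1. Among all genes with a mean of 20 to 200 CPM, the median SD was 2.65 over 288 genes with 1 to 3 exons and 0.775 over 3988 genes with more. The C1q chains, with 3 exons each, were near the median of the few-exon class, and Cx3cr1, with 2, was above its upper quartile of 3.40. Ctsb, Ctsd and Tyrobp, with means of 597, 999 and 19.8 CPM, lie outside these 2 classes. Over 875 genes with a mean of 200 to 2000 CPM and more than 3 exons, the median SD was 0.519 and the upper quartile 0.89. Ctsb was above that quartile and Ctsd below that median. Among genes with a mean of at least 20 CPM, 20.8%, 6.25% and 35.7% of those with 1 to 3 exons were at 0 or 1 count in cKO replicates 1 to 3, and 44.3%, 12.2% and 38.02% in the WT replicates. For genes with more exons it was 2.73%, 0.753% and 3.91% in cKO and 3.71%, 0.733% and 3.32% in WT. A gene can pass that mean on 1 library alone. Of the 99 genes counted in 1 library only, 62 were in cKO replicate 2 and 27 in WT replicate 2. The low shares of the replicate 2 libraries may thus follow in part from how the genes were chosen. C1q, near 0 in replicate 1 of both genotypes, was well counted in both replicate 3 libraries, where 35.7% (cKO) and 38.02% (WT) of few-exon genes were at 0 or 1 count. The part of exon number, depth or fragment length in the member values was not tested.

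**Figure D5:**
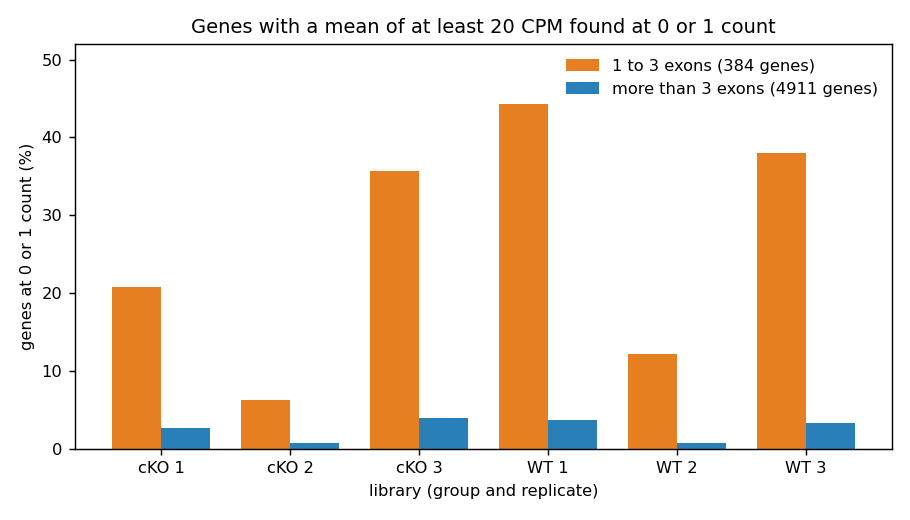
Percentage of genes with a mean of at least 20 CPM that had 0 or 1 count in each library, for genes with 1 to 3 exons (384 genes) and with more (4911 genes). The replicate 2 libraries have the lowest bars in each genotype, 6.25% in cKO and 12.2% in WT for few-exon genes. A gene can pass the mean on 1 library alone, so the bars depend in part on how the genes were chosen.

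Outside the lists, the genes whose profile over the 6 libraries was closest to the mean profile of the 7 members other than Ctsb and Ctsd were Fam193a, Fbxo44, Mfn2, Fbxw8 and Ptpn11. Their root mean square difference from it was 0.317 to 0.428 on the log2(CPM + 1) scale, each profile centred on its own mean, where the median over 4858 candidate genes was 1.47. Fam193a had 8, 62 and 37 counts in cKO and 18, 124 and 52 in WT. Ptpn11 had 29, 187 and 199 counts in cKO and 42, 426 and 219 in WT. The profile used to pick them is itself lowest in replicate 1 (−1.98 in cKO and −1.5 in WT, centred on its mean). Their low values in replicate 1 of both genotypes thus follow from the choice and are no separate observation. These 5 genes have 6 to 21 exons, more than C1q or Cx3cr1.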

How the data were processed

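RNA-seq was analysed from 6 libraries of mouse corpus callosum, 3 Mettl14 cKO and 3 WT, grouped by their titles. Per the labels' protocols, the NEBNext Ultra kit was used on bead-selected polyadenylated RNA; it does not mark strand, so antisense reads cannot be told apart. Per the submitters' processing notes, STAR 2.7.10b, RSEM 1.3.3 and build mm10 were used. The annotation release, strand setting and filters were not given in the sources used here. The deposited tables hold, per the file headers, expected counts, which are estimated fragments per transcript, and the deposited TPM values are scaled by length and library total; other deposited columns (effective length) gave the mean fragment length.

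Expected counts were summed per gene, from 35034 transcripts, and rounded. The main test was edgeR 4.0.16 in R 4.3.3 (quasi-likelihood, TMM, filterByExpr with its minimum count of 10), fitted to the 6 libraries by genotype alone, with Benjamini-Hochberg adjustment over the 5918 genes tested. It was also run on simulated counts, but the outcome is not given here, so that run is no measure of what the test could miss. The SE divides the size of the log2 fold change by the root of F and so restates the p-value. Intervals are exact 95% binomial intervals on pooled counts scaled by library size. Alternatives were RLE and upper-quartile scaling, no filter, 1 CPM in 3 libraries, DESeq2 1.42.0, limma-voom (limma 3.58.1), limma on log2(TPM + 1), the replicate number as a block, and leaving out each library or both replicate 2 libraries; replicate 2 as a term was added after seeing the data. Positions come from a RefSeq table and exon numbers from GENCODE M21, both of GRCm38, the assembly of mm10. All 9 members matched.

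The members and the 13 other gene lists were chosen with earlier results of these data known. Names were taken by rule: the members, Mettl14 and Mettl3, 10 genes given by name, up to 4 tested genes of each list by lowest p plus its most abundant gene, and the 5 closest profiles. Of these, genes bearing on microglia are given. Syk, Spp1, C4a, Cfp, Csmd2, Grb2, Xist, Eif2s3y and identity or border macrophage markers at low counts were picked with their values known. A few listed genes are not reported here and are not drawn.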

Additional observations from a re-analysis of the deposited data

How the results depend on the processing

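The count of members called was 0 under every alternative run, with a lowest adjusted p among the members of 0.308 (Ctsd, edgeR, without cKO replicate 3). Csf1r, Ctss and Ctsd kept a negative log2 fold change in all 16 alternatives and Cx3cr1 in the 6 that could test it. The cause of the following reversals was not tested. C1qa stood at 0.24 with limma-voom, 0.44 with limma on log2(TPM + 1) and 0.63 without both replicate 2 libraries, and C1qb at 0.22 without those 2 libraries. Tyrobp stood at −0.20 with upper-quartile scaling, −0.09 with limma-voom, −0.33 with limma on log2(TPM + 1), −1.08 without both replicate 2 libraries and −0.09 with replicate 2 as a term, an alternative chosen after seeing the data. Leaving out 1 library at a time gave −1.49 to 0.53 for C1qa, −1.40 to 0.24 for C1qb, −1.04 to 0.10 for C1qc, −1.09 to 0.76 for Tyrobp and −0.72 to 0.14 for Ctsb. With upper-quartile scaling all tested genes had a median of −0.22, against 0.07 with TMM.

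Over all genes edgeR called 29 higher and 25 lower in cKO, 12 and 10 with no filter or with 1 CPM in 3 libraries, 11 and 8 with replicate 2 as a term, and 0 and 0 without both replicate 2 libraries (740 genes at an unadjusted p below 0.05). DESeq2 called 250 and 179. Leaving out 1 library at a time gave 0 to 28 higher and 0 to 14 lower. With the replicate block edgeR called 1 higher and 0 lower, Tyrobp stood at −0.11 and no member was called. Over 5918 genes, deviations from the group means correlated with r = 0.05, 0.456 and 0.155 between same-numbered libraries. The value of 0.456, for replicate 2, was the largest of all pairings. However, cKO replicate 1 correlated best with WT replicate 3 (0.09), and cKO replicate 3 and WT replicate 1 with each other (0.203). Deviations of 3 libraries from their own mean are not independent, so these values cannot decide whether the numbers pair the samples. Csf1, Il34, Trem2 and C3 were below the filter, as were all border macrophage genes but Stab1, and at this depth low expression and absence cannot be told apart.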
